A study of Mus musculus with 16 samples.

Results

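Gja1, Gjb2, Gjb5 and Gjb6 encode connexins of the epidermis, and their messages were followed in footpad epidermal cells of mice whose diet and exposure to an allergen differed. These 4 genes were chosen by name, as connexins that keratinocytes are known to use, and they are 4 of the 20 mouse connexin genes among the 50600 gene identifiers of the count table. Female C57/B6J mice received, from 5 wk of age and for 3 wk, 1 of 2 versions of the purified diet AIN-93M, which were the plain diet (AhR-poor) and one supplemented with indole-3-carbinol at 200 ppm (I3C). Indole-3-carbinol is a precursor of ligands of the aryl hydrocarbon receptor (AhR). A footpad injection of 50 μl followed, which held PBS only (vehicle) or 50 μg of the protease allergen papain in PBS, and epidermal cells were taken 6 hr later after the epidermis had been lifted off with dispase and dead cells depleted. The 4 groups (I3C vehicle, I3C papain, AhR-poor vehicle and AhR-poor papain) held 4 libraries each, named by their codes from T100 to T115. A cage held mice of a single diet, so a difference between diets cannot be told apart from one between cages.

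Connexins are membrane proteins that assemble in rings to form a hemichannel, and a hemichannel that docks with another on a neighbouring cell makes a gap junction channel through which ions and small metabolites pass. Gja1 encodes the most widely expressed connexin, found in basal and spinous keratinocytes, whereas Gjb2 and Gjb6 encode closely related connexins that are known to be low in resting interfollicular epidermis and abundant in wounded or hyperproliferative epidermis and in palmoplantar skin. Gjb5 is expressed in differentiating keratinocytes. Inherited mutations of several of these genes cause disorders of the skin and of hearing.

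Library totals ranged from 22500821 to 51844375 counts, and levels are given as CPM, the counts of a gene relative to all counts of its library, scaled with the TMM factors of edgeR. The markers of keratinocytes matched the label of the cells, with 7 basal markers that summed to between 21070 and 37273 CPM and 7 suprabasal markers that summed to between 21601 and 46233 CPM in a library. Markers of dermal cells were much lower, from 15.2 to 666 CPM over 8 genes of fibroblasts and from 1.08 to 71.9 CPM over 7 genes of endothelial cells. Both lists had higher levels without I3C. With vehicle, 7 of 8 fibroblast markers and 7 of 7 endothelial markers were higher on that diet, with median log2 fold changes of 4.08 and 3.99, and with papain 8 of 8 and 7 of 7 were higher, with medians of 6.47 and 5.18.

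The 4 genes lie at 3 loci of GRCm38 (mm10). Gja1 (ENSMUSG00000050953) spans chr10:56377330-56402513 on the plus strand. Gjb2 (ENSMUSG00000046352, chr14:57098600-57104702) and Gjb6 (ENSMUSG00000040055, chr14:57123303-57133611) are neighbours on the minus strand, with 18600 bases between them. Gjb5 (ENSMUSG00000042357, chr4:127354809-127358181, minus strand) lies on another chromosome. None of the 4 shares exonic bases with another annotated gene. Their coding sequences have 1146 bases for Gja1, 678 for Gjb2, 813 for Gjb5 and 783 for Gjb6. Gjb2 and Gjb6 were the most alike of the 4, with 76.66% identity over 677 aligned coding bases, but their longest identical run was 20 bases, shorter than the sequencing reads. A stretch of the first extracellular loop, which docks hemichannels of neighbouring cells, is shown because it is shared by the 4 genes and shows how Gjb2 and Gjb6 resemble each other. It covers codons 54 to 65 of Gja1 and 53 to 64 of the others, taken from the GENCODE transcripts, and capitals mark the 3 cysteine codons that all 4 genes hold.
Gja1: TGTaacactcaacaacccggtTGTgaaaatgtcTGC
Gjb2: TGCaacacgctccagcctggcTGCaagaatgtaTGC
Gjb5: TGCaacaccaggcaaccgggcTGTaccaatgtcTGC
Gjb6: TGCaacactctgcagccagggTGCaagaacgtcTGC

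The 250 bases before the transcription start annotated by RefSeq (GRCm38.p6) are shown for the 4 genes, since Gjb2 and Gjb6 lie side by side and varied together within the groups. Of the 20 connexin genes, 12 had an entry in the promoter table. Capitals mark matches, on either strand, to the AhR response element core GCGTG, the AP-1 site TGANTCA, the STAT site TTCNNNGAA, the GC box GGGCGG, the TATA box TATAAA and the NF-kB site GGGNNTTCC, which are letters searched and not sites shown to be bound.
Gja1 (chr10:56377050-56377299, plus strand): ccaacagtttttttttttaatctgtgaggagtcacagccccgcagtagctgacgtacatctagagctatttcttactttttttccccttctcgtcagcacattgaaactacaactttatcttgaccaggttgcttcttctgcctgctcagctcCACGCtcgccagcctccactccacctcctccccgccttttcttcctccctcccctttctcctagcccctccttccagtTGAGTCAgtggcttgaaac
Gjb2 (chr14:57104703-57104952, minus strand): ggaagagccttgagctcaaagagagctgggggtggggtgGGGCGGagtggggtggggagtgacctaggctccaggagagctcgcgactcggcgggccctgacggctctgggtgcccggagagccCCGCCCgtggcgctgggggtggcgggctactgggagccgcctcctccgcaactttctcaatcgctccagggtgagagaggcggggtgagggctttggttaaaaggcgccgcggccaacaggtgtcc
Gjb5 (chr4:127358165-127358414, minus strand): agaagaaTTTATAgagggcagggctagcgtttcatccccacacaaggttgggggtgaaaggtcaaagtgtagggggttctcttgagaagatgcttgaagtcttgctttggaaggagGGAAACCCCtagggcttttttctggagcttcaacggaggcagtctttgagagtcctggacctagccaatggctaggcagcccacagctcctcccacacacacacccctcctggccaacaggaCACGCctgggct
Gjb6 (chr14:57133612-57133861, minus strand): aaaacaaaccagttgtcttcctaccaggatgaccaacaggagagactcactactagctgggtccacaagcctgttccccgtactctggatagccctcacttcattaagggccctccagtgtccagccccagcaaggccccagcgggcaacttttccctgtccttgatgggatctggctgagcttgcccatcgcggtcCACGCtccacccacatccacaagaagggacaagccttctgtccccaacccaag

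The AhR core was found once in Gja1, at -97 from the start, once in Gjb5, at -12, and once in Gjb6, at -53, and Gjb2 had no match, whereas 28.2% of 32851 promoter windows of this length held it. The AP-1 letters occurred in Gja1 alone of the 4, at -19, and in 6.75% of all windows. Gjb2 had 2 matches to the GC box, at -211 and -126, a motif of 32.7% of windows, and its window was 69.2% G and C with 18 CpG pairs, against medians of 52.4% and 6 over all windows. Windows of the other 3 genes were 50% G and C for Gja1, 54.4% for Gjb5 and 56.8% for Gjb6. Gjb5 matched the TATA letters at -243, which 12.4% of windows hold, and the NF-kB letters at -134, which 4.98% hold. No match to the STAT letters was found in the 4 windows, against 7.02% of all windows.

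Gjb2 rose with papain on both diets, and the other 3 genes did not pass both thresholds. Gjb2 measured 24.1, 31.5, 42.1 and 52.6 CPM in the I3C vehicle libraries and 230, 859, 439 and 345 CPM in the I3C papain libraries T106, T113, T114 and T115. In the AhR-poor vehicle libraries it measured 28.5, 43.7, 57.4 and 67.9 CPM, and in the AhR-poor papain libraries 211, 180, 320 and 228 CPM. Every papain library lay above every vehicle library, and T113 held the highest level. The log2 fold change was 3.64 (SE 0.43, adjusted p = 1.6e-05) on the I3C diet, which is 12.5-fold, and 2.25 (SE 0.40, adjusted p = 7.2e-04) on the AhR-poor diet, which is 4.75-fold, in the quasi-likelihood test of edgeR with Benjamini-Hochberg adjustment over 22155 genes. Exact permutation tests (two-sided) of the log2 level gave p = 0.0286 on each diet, the smallest that 4 libraries against 4 can give. Leaving out each library in turn moved the log2 fold change to between 3.15 and 3.86 on the I3C diet and between 2.07 and 2.45 on the AhR-poor diet, with adjusted p of at most 0.00387. The lowest I3C value came without T113, where the group mean was 338 ± 104.97 CPM (SD, n = 3) in place of 468 ± 274 CPM (SD, n = 4).

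Thus 1 of the 4 genes passed on each diet, with the adjusted p below 0.01 and the size of the log2 fold change over 1. Over all genes tested, 8.46% passed in the papain response on the AhR-poor diet and 8.98% in that on the I3C diet. Without the minimum fold change, 1 of the 4 passed on the AhR-poor diet, against 22.5% of all genes, and 2 of the 4 on the I3C diet, against 25.7%.

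**Figure D1:**
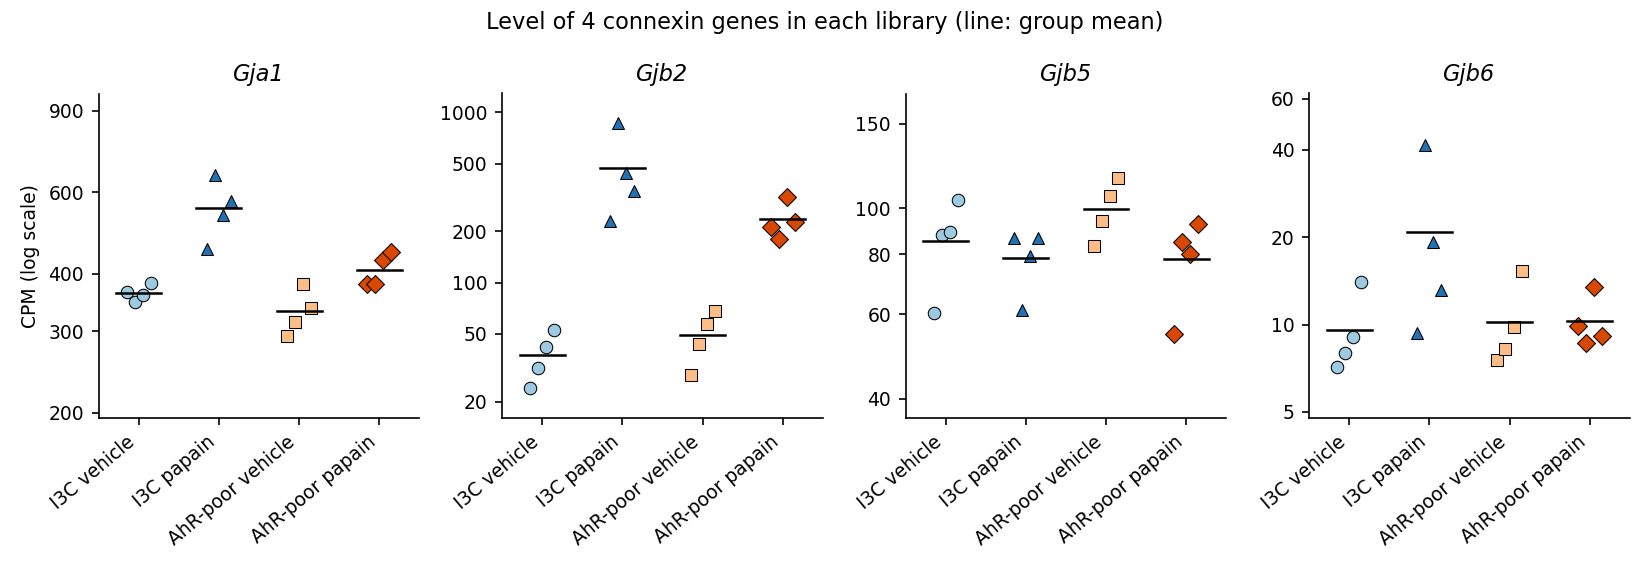
Level of Gja1, Gjb2, Gjb5 and Gjb6 in each of the 16 libraries, in CPM on a log axis whose range differs between the 4 panels, with points for libraries and a line for the mean of each group. The 8 papain libraries lie above the 8 vehicle libraries for Gjb2 (180 CPM and above against 67.9 CPM and below), whereas the groups overlap for Gjb5.

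Gja1, the gene of the most abundant epidermal connexin by counts, rose by less than the minimum fold. Its levels were 366, 348, 360 and 382 CPM with vehicle and 452, 654, 535 and 575 CPM with papain on the I3C diet, so that the groups did not overlap. On the AhR-poor diet they were 293, 315, 380 and 337 CPM with vehicle and 379, 380, 428 and 445 CPM with papain, and 1 vehicle library, T102, reached the papain libraries. The log2 fold change was 0.61 (SE 0.10, adjusted p = 9.7e-05) on the I3C diet and 0.30 (SE 0.10, adjusted p = 0.027) on the AhR-poor diet by edgeR. In two-sided exact permutation tests the p was 0.0286 and 0.0857. Replicates of Gja1 were close, with a coefficient of variation of 3.82% in the I3C vehicle group and 15.2% in the I3C papain group, against 33.1% and 58.5% for Gjb2.

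Gjb6, which lies beside Gjb2, was much lower, and 1 library moved its fold change most. Its levels were 7.15, 8.01, 9.06 and 14.1 CPM with vehicle and 9.33, 41.8, 19.3 and 13.1 CPM with papain on the I3C diet, where T113 held 41.8 CPM and both T106 and T115 lay inside the vehicle range. On the AhR-poor diet they were 7.52, 8.26, 9.79 and 15.3 CPM with vehicle and 9.90, 8.65, 13.5 and 9.14 CPM with papain, ranges that overlapped throughout. On the I3C diet its log2 fold change was 1.12 (SE 0.40, adjusted p = 0.043, exact permutation p = 0.114) and dropped to 0.53 (adjusted p = 0.22) by the same edgeR test without T113. On the AhR-poor diet it was 0.00 (SE 0.40).

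Gjb5, the gene linked to differentiation, did not pass in either response. It measured 60.3, 87.7, 89.2 and 103.9 CPM with vehicle and 86.7, 61.3, 79.4 and 86.6 CPM with papain on the I3C diet. On the AhR-poor diet the values were 83.1, 93.8, 105.8 and 116 CPM with vehicle and 54.7, 84.9, 80.1 and 92.6 CPM with papain. The groups overlapped on both diets, and T113 was the lowest of its group, whereas it was the highest for the other 3 genes. The log2 fold changes were -0.12 (SE 0.18, adjusted p = 0.66) and -0.35 (SE 0.18, adjusted p = 0.15) by edgeR.

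Genes that keratinocytes switch on around wounds moved with Gjb2. All 7 genes of the wound keratinocyte list (Krt6a, Krt6b, Krt16, Krt17, Sprr1b, S100a8 and S100a9) were higher after papain on both diets, with median log2 fold changes of 4.67 on the I3C diet and 3.98 on the AhR-poor diet, against -0.04 and 0.00 over all genes tested. Their summed level was 757 to 1117 CPM with vehicle and 6792 to 14216 CPM with papain on the I3C diet, and 920 to 1251 CPM and 6637 to 10280 CPM on the AhR-poor diet. Library T113 had the highest level of its group in Krt6a, a stress keratin, at 4750 CPM against 1704 to 2724 CPM in the other 3, and also in Krt6b, Krt16 and Krt17. In bulk samples more cells of a type and more RNA per cell cannot be told apart, and the part of these keratinocytes in the rise of Gjb2 was not tested. Of 7 basal markers, Krt15 was lower after papain on each diet and 0 were higher. The log2 fold changes of Krt15 were -1.93 (SE 0.17) on the I3C diet and -1.38 (SE 0.17) on the AhR-poor diet. No suprabasal, granular or palmoplantar marker passed in either response. Of 7 neutrophil markers, 3 were higher on the I3C diet and 7 on the AhR-poor diet, and they summed to 44.6 to 74.6 CPM and 80.8 to 550 CPM after papain. S100a8 and S100a9 stand in both lists. Without these 2 genes, 5 of 5 wound genes were higher on each diet, with medians of 4.28 on the I3C diet and 3.91 on the AhR-poor diet, and of the other 5 neutrophil markers 1 (Cxcr2) was higher on the I3C diet and 5 on the AhR-poor diet.

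**Figure D2:**
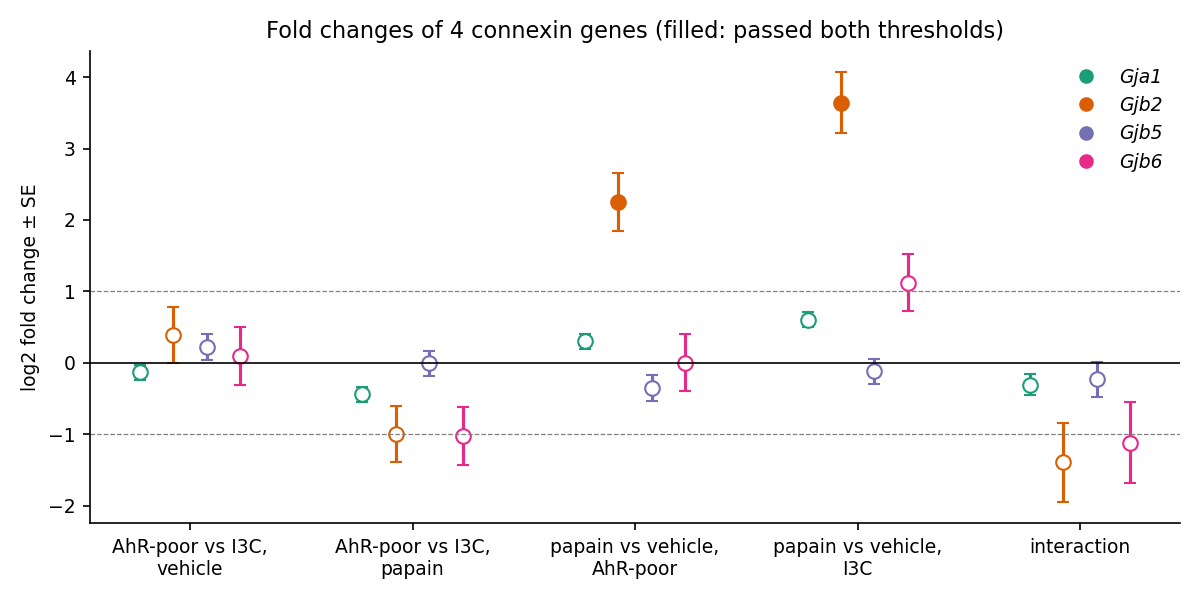
Log2 fold change with its SE from edgeR (16 libraries) for the 4 genes in 5 comparisons, with the minimum fold change drawn as dashed lines and filled points for genes that passed both thresholds. Gjb2 is filled in both papain responses (2.25 and 3.64), and no point is filled between the diets or in the interaction.

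The diet comparison asked whether the AhR-poor diet alters these genes before and after papain. With vehicle, 0 of the 4 genes passed in edgeR, 0 had an unadjusted p below 0.05 and 0 passed in DESeq2, and 1.59% of all genes tested passed in edgeR (1.72% without the minimum fold change) and 2.71% in DESeq2. The log2 fold changes, AhR-poor against I3C, were -0.13 for Gja1 (SE 0.10), 0.40 for Gjb2 (SE 0.39), 0.22 for Gjb5 (SE 0.18) and 0.10 for Gjb6 (SE 0.40). With papain, 0 of the 4 passed in edgeR or in DESeq2 and 3 had an unadjusted p below 0.05, while 7.24% of all genes passed in edgeR, or 11.2% without the minimum fold change, and 7.91% in DESeq2.

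Of the 4 genes, Gja1 had the smallest adjusted p between the diets after papain. It stood at 408 ± 33.6 CPM on the AhR-poor diet and 554 ± 84.3 CPM on the I3C diet (SD, n = 4 each), and all 4 AhR-poor libraries lay below all 4 I3C libraries. The difference was -0.44 on the log2 scale (SE 0.10, adjusted p = 0.0042 by edgeR), under the minimum fold change, with an exact permutation p of 0.0286. Without T113 it was -0.34 (adjusted p = 0.028). In the same comparison 0 of the 7 basal keratinocyte markers passed both thresholds. Their median log2 difference was -0.39, and 3 of the 7 lay above 0. By edgeR, Itga6 was at -0.47 (SE 0.12, adjusted p = 0.0078) and Trp63 at -0.39 (SE 0.10, adjusted p = 0.0086). Col17a1 was at -0.46 (SE 0.15) and Itgb4 at -0.42 (SE 0.12). Krt15 was at 0.80 (SE 0.17, adjusted p = 0.0028), Krt14 at 0.03 (SE 0.12) and Krt5 at 0.01 (SE 0.10). Fibroblasts are also known to express Gja1, and their markers were higher on the AhR-poor side. The part of either cell type in the difference of Gja1 was not tested.

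Gjb2 and Gjb6 were also lower on the AhR-poor diet after papain by their means but did not pass. Gjb2 stood at 235 ± 60.1 CPM against 468 ± 274 CPM (SD, n = 4 each), a log2 difference of -0.997 (SE 0.39, adjusted p = 0.090), and Gjb6 at 10.3 ± 2.18 CPM against 20.9 ± 14.5 CPM, a log2 difference of -1.02 (SE 0.40, adjusted p = 0.091). Without T113 these became -0.51 (adjusted p = 0.36) and -0.43 (adjusted p = 0.39) by edgeR. The interaction, which asks whether the papain response differs between the diets, was -1.39 for Gjb2 (SE 0.55, adjusted p = 0.31), -1.12 for Gjb6 (SE 0.57, adjusted p = 0.41), -0.31 for Gja1 (SE 0.14, adjusted p = 0.36) and -0.23 for Gjb5 (SE 0.25, adjusted p = 0.73). So 0 of the 4 passed in edgeR, with 2 at an unadjusted p below 0.05, and 0 passed in DESeq2. Of all genes tested, 0.0181% passed in edgeR and 0.925% in DESeq2. For Gjb5 the levels with papain were 78.1 ± 16.4 CPM and 78.5 ± 11.9 CPM on the AhR-poor and I3C diets (SD, n = 4 each), a log2 difference of -0.01 (SE 0.18).

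The diets were also compared in AhR target genes. Of 5 targets (Cyp1a1, Cyp1b1, Ahrr, Tiparp and Nqo1), 0 passed between the diets with vehicle. With papain, Cyp1a1 and Cyp1b1 passed, both with the higher level on the AhR-poor side. The log2 differences were 2.79 (SE 0.52) and 1.48 (SE 0.29). That is 40% of the 5, where 7.24% of all genes passed. Ahrr (0.47), Nqo1 (-0.33) and Tiparp (-0.13) did not pass. Cyp1a1 itself fell with papain on the I3C diet, with a log2 fold change of -2.62 (SE 0.52, adjusted p = 6.7e-04 by edgeR). On the AhR-poor diet its papain response was 0.47 and did not pass. Cyp1a1 stood at 0.057 to 0.45 CPM for I3C papain and 1.17 to 2.18 CPM for AhR-poor papain. Cyp1b1 did not overlap between the diets with vehicle either, at 2.85 to 3.88 CPM for I3C and 3.92 to 8.66 CPM for AhR-poor (log2 difference 1.02, SE 0.27, adjusted p = 0.0497 by edgeR). The summed level of all 5 targets, most of it Tiparp, was 149 to 277 CPM for I3C vehicle and 142 to 183 CPM for AhR-poor vehicle. With papain the sum was 181 to 247 CPM for I3C and 186 to 221 CPM for AhR-poor.

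Gjb2 and Gjb6 varied together from library to library within the groups. After each group's mean was removed, their log2 levels had a Pearson correlation of 0.94 and a Spearman correlation of 0.94 over 16 libraries, given as a description, since values of a library share its depth and scaling. Among 9159 genes with at least 10 CPM on average, Gjb6 was the gene most like Gjb2 by this measure and Gjb2 the gene most like Gjb6. Pearson's correlation was 0.91 without T113 and 0.89 without T106 and T113, the 2 libraries farthest from the median of Gjb2. For Gja1 and Gjb2 it was 0.78, or 0.59 without those 2 libraries. Gjb5 had lower values, 0.15 with Gjb2 and -0.04 with Gjb6, although without T113 they were 0.55 and 0.40. Those values pool groups of opposite sign. Within single groups of 4 libraries, Gjb5 ranged from -0.94 to 0.99 with Gjb2 and from -0.96 to 0.92 with Gjb6. Gjb2 with Gjb6 ranged from 0.86 to 0.996.

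The proportion of the neighbouring genes was not the same with vehicle and with papain. The ratio of Gjb2 counts to Gjb6 counts was 3.37, 3.94, 4.64 and 3.74 in the I3C vehicle libraries and 3.79, 5.29, 5.86 and 4.44 in the AhR-poor vehicle libraries. With papain it was 24.6, 20.6, 22.7 and 26.3 on the I3C diet and 21.3, 20.8, 23.8 and 24.9 on the AhR-poor diet. The papain and vehicle ratios were far apart, and the diets overlapped with papain, also in T113, where both genes were highest. The mean ratio after papain was 23.6 ± 2.45 on the I3C diet and 22.7 ± 1.955 on the AhR-poor diet (SD, n = 4 each), values described here after they were seen.

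**Figure D3:**
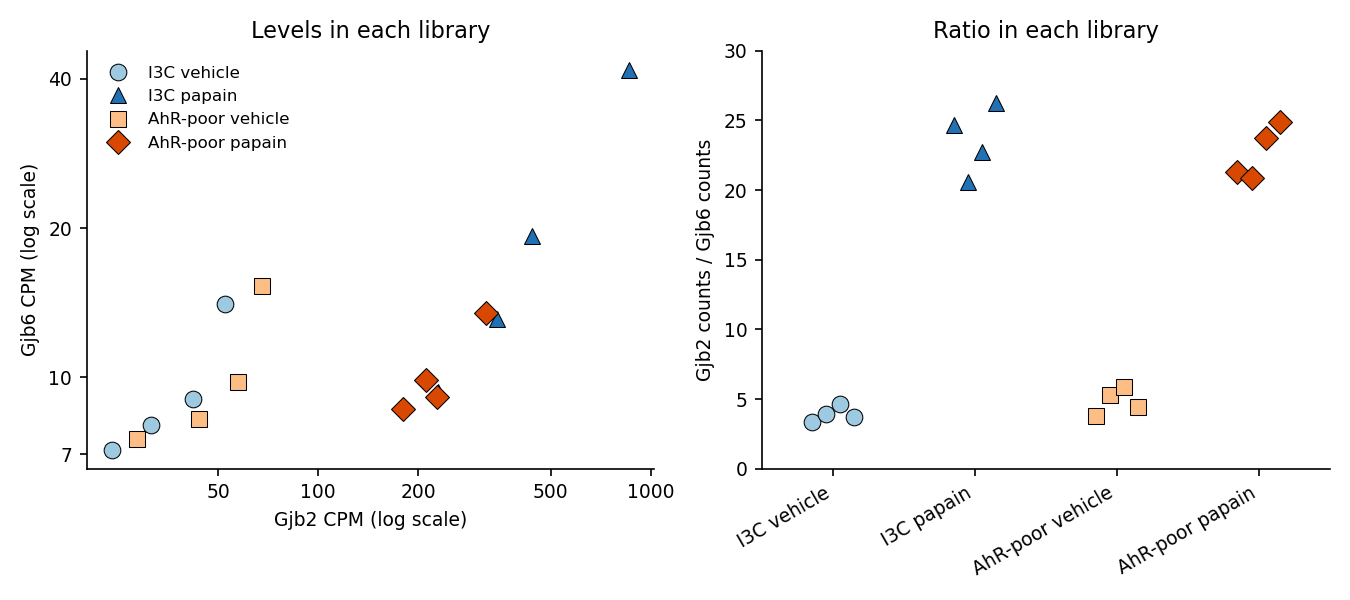
Left, Gjb6 against Gjb2 in each of the 16 libraries, in CPM on log axes; right, the ratio of their counts in each library by group. Within vehicle and within papain libraries both genes rise together, and the ratio lies between 3.37 and 5.86 with vehicle and between 20.6 and 26.3 with papain.

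The genes most like each member over all 16 libraries, by the Pearson correlation of log2 levels among 9160 genes with at least 10 CPM on average, differed between the 4. For Gjb2 they were Fabp5, a fatty acid binding protein of keratinocytes (0.98), Tfg (0.98) and Nars (0.98), of which Fabp5 had mean levels of 526 and 1942 CPM with vehicle and papain on the I3C diet and 592 and 1388 CPM on the AhR-poor diet. For Gja1 they were Slc30a9, Enah and Chuk (0.96 each), and Enah, an actin regulator, went from 164 to 362 CPM with papain on the I3C diet and from 141 to 227 CPM on the other. For Gjb5 they were Sgpp1 (0.95), Calm4, a calcium-binding protein of differentiating epidermis (0.95), and Cebpa, a transcription factor of differentiation (0.94). Gjb6 had weaker matches, with Csta1 (0.83), Dapk1 (0.81) and Klc1 (0.80).

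Levels can be compared between genes only per length, and here the length chosen decided the place of Gja1. Its 8 annotated transcripts join to 10257 exonic bases, of which the longest protein-coding transcript holds 3182. By exonic length, the order in the I3C vehicle group was Gjb5 at 49.6 CPM per kilobase, Gja1 at 35.5, Gjb2 at 15.6 and Gjb6 at 3.58, and the libraries of Gjb5 and Gja1 overlapped. The AhR-poor vehicle group had the same order, with no overlap between neighbours. Divided by its longest protein-coding transcript instead, a choice made after the levels were seen, Gja1 came first on both diets, at 114.4 ± 4.37 CPM per kilobase for I3C vehicle and 104.1 ± 11.8 for AhR-poor vehicle (SD, n = 4 each), above every library of Gjb5.

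After papain, Gjb2 went from place 3 of the 4 genes to place 1 by exonic length on both diets, with 195 ± 113.9 CPM per kilobase on the I3C diet and 97.5 ± 25.0 on the AhR-poor diet (SD, n = 4 each). Its libraries lay above those of the next gene on both diets, which was Gja1 at 54.0 ± 8.22 on the I3C diet and Gjb5 at 45.4 ± 9.54 on the AhR-poor diet, while Gja1 and Gjb5 overlapped with each other. By the longest protein-coding transcript Gjb2 could not be parted from Gja1 on either diet, with 174 ± 26.5 CPM per kilobase for Gja1 on the I3C diet and 128 ± 10.6 on the AhR-poor diet. By coding length these 2 genes also overlapped, with Gjb2 at 691 and Gja1 at 483 on the I3C diet, and 346 and 356 on the AhR-poor diet. Gjb6 was the lowest of the 4 in every group by each length. By the exonic length and the longest protein-coding transcript it had 9.92 CPM per kilobase or less.

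**Figure D4:**
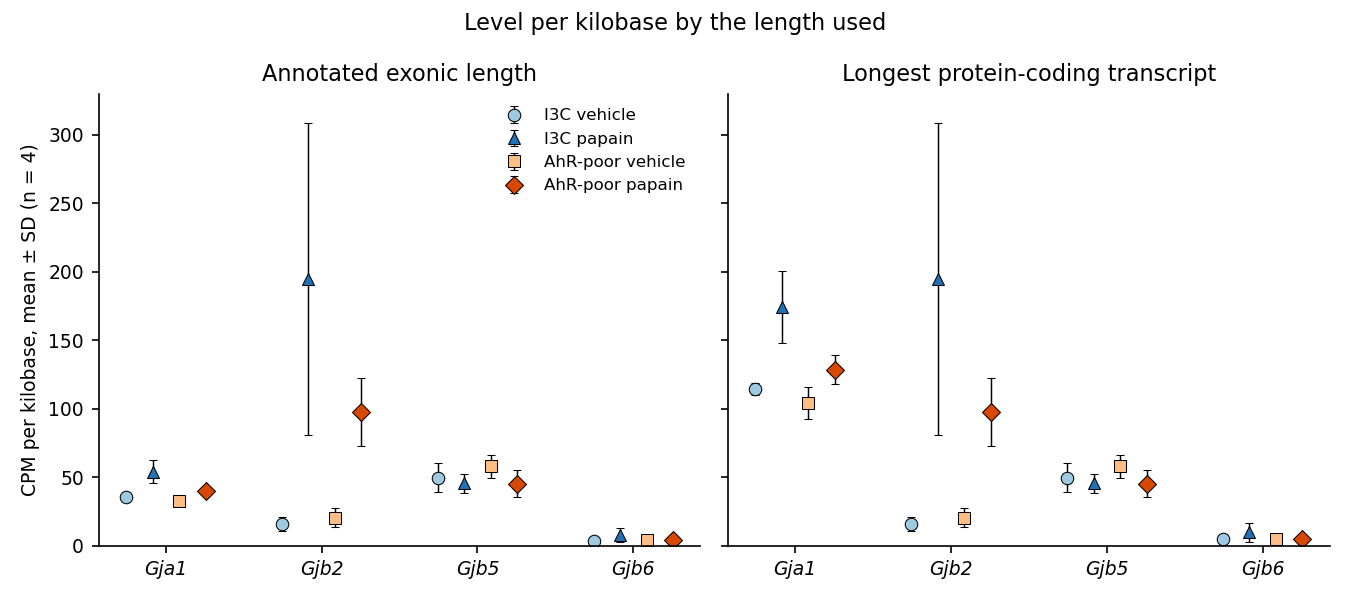
Level of the 4 connexin genes in CPM per kilobase, as mean ± SD of the 4 libraries of each group, divided by the annotated exonic length (left) or by the longest protein-coding transcript (right). Gjb2 goes from 15.6 to 195 on the I3C diet and from 20.5 to 97.5 on the AhR-poor diet, and Gja1 is the gene whose level differs most between the lengths.

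As a share of the summed level per kilobase of the 4 genes, Gjb2 held 14.7% ± 2.61 with vehicle and 61.2% ± 11.2 with papain on the I3C diet, and 17.5% ± 3.44 and 51.9% ± 6.00 on the AhR-poor diet (SD, n = 4 each, exonic length). With the longest protein-coding transcript the shares were 8.34% and 43.3% on the I3C diet and 10.7% and 35.01% on the AhR-poor diet. The share of Gjb5 went from 47.2% ± 3.65 to 17.3% ± 7.73 and from 50.7% ± 1.71 to 24.5% ± 5.05, while its own level did not pass, since a share falls when another gene rises. The vehicle and papain libraries did not overlap in the share of Gjb2 or Gjb5 on either diet. Gjb6 held between 2.06% and 3.38% on average in the 4 groups.

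The rest of the family was counted in full. Of the 20 connexin genes, 13 had at least 10 counts in total and were tested, and 7 had 8 counts or fewer over all libraries and were not. In each papain response 2 of the 13 were higher and 2 lower, with median log2 fold changes of 0.00 on the AhR-poor diet and -0.12 on the I3C diet, while between the diets 0 passed with vehicle and 1 with papain. That is 30.8% of the 13 in each papain response, where 8.46% (AhR-poor) and 8.98% (I3C) of all genes passed, and 7.69% between the diets with papain, where 7.24% of all genes passed. Gjb2 is among the 13. Below 1 CPM on average, 5 connexins were tested, among them Gja3 and Gjc1.

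Gjb1, the main connexin of hepatocytes and Schwann cells, was the other connexin that rose on both diets, from almost nothing. It had 0, 1, 5 and 0 counts in the I3C vehicle libraries and 95, 118, 163 and 145 in the I3C papain libraries, and 3, 4, 3 and 3 against counts from 95 to 168 on the AhR-poor diet. The papain levels were 2.31 to 4.65 CPM, far below those of Gjb2. The log2 fold changes were 6.32 (SE 0.47, adjusted p = 1.2e-08) and 5.13 (SE 0.42, adjusted p = 8.6e-08) by edgeR, the first against so few counts that it moved between 5.95 and 8.14 over the other settings. Of 4 Schwann cell markers, 0 passed in either papain response, and their summed level was 54.0 to 67.0 CPM with vehicle and 71.0 to 93.8 CPM with papain on the I3C diet.

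Gja4, a connexin of arterial endothelium, fell on both diets. It measured 1.67, 1.963, 1.88 and 1.86 CPM with vehicle and 0.54, 0.58, 0.49 and 0.47 CPM with papain on the I3C diet, and its log2 fold change was -1.83 (SE 0.20, adjusted p = 8.5e-07). On the AhR-poor diet it went from 2.01 ± 0.31 to 0.81 ± 0.12 CPM (SD, n = 4 each), a log2 fold change of -1.31 (SE 0.19, adjusted p = 3.2e-05). Of 7 endothelial markers, Eng and Cdh5 were higher after papain on the AhR-poor diet and 0 were lower. That is 28.6% of the list, against 8.46% of all genes. On the I3C diet 0 of 7 passed, with a median log2 fold change of -0.47 and 1 of 7 above 0. Between the diets Gja4 did not pass, with log2 differences of 0.13 (SE 0.18) with vehicle and 0.64 (SE 0.21) with papain. In both comparisons 7 of 7 endothelial markers were higher on the AhR-poor diet, where 1.59% and 7.24% of all genes passed. Gja3, known from the lens, also fell on both diets, from 0.84 CPM on average on the I3C diet (log2 fold change -2.59) and from 0.44 CPM on the AhR-poor diet (-2.38). Gjc1, a connexin of vascular smooth muscle and heart, was the connexin that passed between the diets with papain. It measured 1.11 ± 0.25 CPM on the AhR-poor diet and 0.26 ± 0.11 CPM on the I3C diet (log2 difference 2.08, SE 0.42, adjusted p = 0.0015 by edgeR). In that comparison 3 of 6 pericyte and smooth muscle markers (Rgs5, Pdgfrb and Des) were higher, where 7.24% of all genes passed. Acta2 (0.37), Myh11 (0.09) and Cspg4 (-0.40) did not pass. The 6 markers summed to 66.8 to 84.8 CPM for AhR-poor papain and 74.6 to 94.9 CPM for I3C papain. The part of other cell types in these low signals was not tested.

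Pannexins form large-pore channels in single membranes and resemble connexins in their fold but not in sequence. Panx1, which releases ATP from cells, measured 28.9 to 36.01 CPM with vehicle and 50.8 to 56.2 CPM with papain on the I3C diet, and 22.7 to 29.2 CPM and 41.6 to 51.0 CPM on the AhR-poor diet, without overlap. Its log2 fold changes of 0.76 (SE 0.09, adjusted p = 2.3e-06) and 0.84 (SE 0.09, adjusted p = 1.5e-06) stayed under the minimum. Panx3 differed by diet, with 0.62 ± 0.40 CPM for I3C vehicle and 6.18 ± 2.40 CPM for AhR-poor vehicle (log2 difference 3.31, SE 0.51, adjusted p = 0.0014), and 0.35 ± 0.34 against 4.83 ± 1.22 CPM with papain (3.72, SE 0.54, adjusted p = 1.6e-04). Fibroblast markers shared this direction, but so did nearly every gene that passed between the diets in edgeR. With vehicle it held for all 352 of them, and with papain only 22 of 1605 went the opposite way. The direction alone therefore does not link Panx3 to fibroblasts, and their part in its level was not tested. With vehicle Panx3 passed in 22 of 23 settings, the main one included, and missed the adjusted p in 1, at 0.0104.

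**Figure D5:**
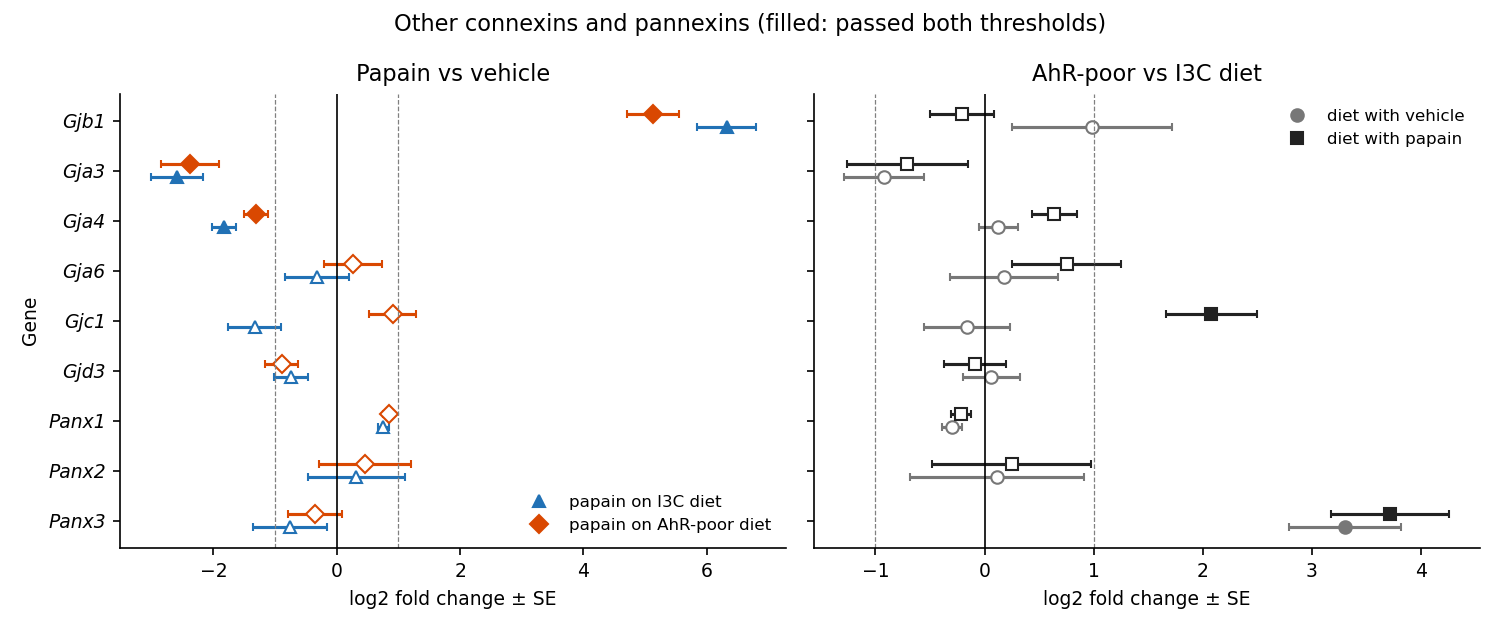
Log2 fold change with its SE from edgeR for 6 other connexin genes and the 3 pannexin genes, in the papain responses (left) and between the diets (right), with the minimum fold change drawn as dashed lines and filled points for genes that passed both thresholds. Gjb1 (5.13 and 6.32), Gja3 and Gja4 are filled on the left and Gjc1 and Panx3 on the right.

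Proteins that anchor, phosphorylate or turn over connexins were followed as a list of 33 genes, all of them tested. In the papain responses 3 of the 33 were higher on the AhR-poor diet and 2 on the I3C diet, with none lower, and their median log2 fold changes were -0.04 and 0.12. These are 9.09% and 6.06% of the list, near the 8.46% and 8.98% of all genes. Prkce, a protein kinase C that phosphorylates the Gja1 protein, rose on both, by 1.82 (SE 0.23) and 2.23 (SE 0.23). Rab20, a small GTPase linked to connexin trafficking, rose on the AhR-poor diet by 1.44 (SE 0.21), and Vcl, which encodes vinculin of adherens junctions, on the I3C diet by 1.24 (SE 0.18). Between the diets, 1 of the 33 was higher on the AhR-poor diet with vehicle and 3 with papain, 3.03% and 9.09% of the list against 1.59% and 7.24% of all genes. Ccn3, a secreted protein that binds the Gja1 protein, was higher in both, by 3.82 (SE 0.52) and 7.51 (SE 0.59). It also rose with papain on the AhR-poor diet by 2.26 (SE 0.39). Its mean levels were 0.23 CPM for I3C vehicle, 0.09 for I3C papain, 3.26 for AhR-poor vehicle and 15.7 for AhR-poor papain. Both I3C means were low, so the sizes of its diet differences are uncertain. Fibroblast markers and most other genes that passed between the diets shared this direction. The part of other cell types in the level of Ccn3 was not tested. Dbn1, which encodes the actin-binding drebrin, was higher by 2.68 (SE 0.39) and Rab20 by 1.09 (SE 0.20) on the AhR-poor diet with papain. The scaffold gene Tjp1 passed in none of these comparisons.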

How the data were processed

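Footpad epidermal cells of 16 mice were sequenced with the TruSeq Stranded mRNA kit, and the authors aligned the reads with STAR to mm10 and deposited raw counts per gene and library, without normalization. The counting tool, the annotation and the strand setting are not given in the sources used here. Groups were taken from the labels. The labels do not give the sequencing unit of each library, so it could not be a term in the fit. Of 50600 identifiers, 50376 matched a symbol of the GENCODE annotation for GRCm38.

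A total of 10 counts over the libraries was required of a gene, which 22155 genes met, and these were fitted with edgeR 4.0.16 in R 4.3.3 (TMM factors, a mean for each of 4 groups, robust quasi-likelihood F test) and passed where the p adjusted by Benjamini-Hochberg was below 0.01 and the log2 fold change beyond 1 in either direction. Standard errors (SE) come from that test. Two-sided exact permutation tests used log2(CPM + 0.5), were made for 4 genes in 4 comparisons (16 tests) and were not adjusted. In the interaction, the papain response on the I3C diet is taken from that on the AhR-poor diet. Comparisons share groups, so they are not independent. The model was tested on simulated counts. Intervals and limits from counts cover counting error only, and p-values measure the spread between libraries of separate mice. Any 2 libraries of a group differed beyond counting error (lowest chi-square per degree of freedom 9.43).

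As alternatives, normalization used RLE factors or the library size alone, genes were filtered by filterByExpr, by a minimum of 10 counts in each library or by any count at all, DESeq2 1.42.0 replaced edgeR, the fit was limited to the 8 libraries of a comparison, the adjusted p was raised to 0.05, the fold minimum was dropped, each library was left out in turn, and, for levels per kilobase, the coding length or the longest protein-coding transcript. Named genes were the 4 connexins, other connexins and pannexins with at least 1 CPM on average, regulators that passed in a comparison, and for each of the 4 genes the 3 genes most correlated with it. Gja3, Gjc1, Panx2, markers and AhR targets were named besides, after their values were seen. Some genes that this rule names are not reported here. The 4 genes and all lists were chosen with earlier results of these data known. Promoter sequences come from RefSeq and coding sequences from GENCODE.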

Additional observations from a re-analysis of the deposited data

How the results depend on the processing

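No paired analysis was possible because no replicate code occurs in more than 1 group. The number of the 4 genes that passed (0 between the diets with vehicle, 0 with papain, 1 in the papain response of each diet and 0 in the interaction) was the same with RLE factors, library size only, the 3 other filters, DESeq2, the 8 libraries compared and each library left out. The interaction has no fit of 8 libraries. Without the minimum fold change it was 1 with papain between the diets and 2 in the I3C response, where Gja1 came in at -0.44 and 0.61, and with an adjusted p below 0.05 it was 2 in the I3C response, where Gjb6 came in at 1.12.

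Small differences changed sign and are values without a call. Leaving out single libraries moved the diet difference of Gjb6 with vehicle between -0.18 and 0.34, its papain response on the AhR-poor diet between -0.14 and 0.27, and the diet difference of Gjb5 with papain between -0.10 and 0.11 on the log2 scale. With library size only, the last was 0.091. The cause was not tested. Of the 16 exact tests, 4 reached the smallest p, and 4 did so with levels scaled by library size only. With 4 libraries a group, the spread between libraries limits Gjb2 and Gjb6, whose coefficient of variation reached 58.5% and 69.5%.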
